A study of Mus musculus with 6 samples.

Results

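The genes described here are 10 genes of antigen presentation, taken by symbol from a table of 18491 genes: the class I heavy chains H2-K1 and H2-D1, the light chain B2m, the peptide supply genes Psmb8, Psmb9, Tap1, Tap2 and Tapbp, the class I regulator Nlrc5 and the class II invariant chain Cd74. All 10 were found. Poly(A) RNA was sequenced from the brain of mice of the inbred strain C57BL/6N at postnatal day 28. The 3 Mettl5-/- samples, homozygous for a knockout of a methyltransferase that acts on small-subunit ribosomal RNA, were set against 3 wild-type samples, and no treatment is given for either group. The labels name neither the deleted part of Mettl5 nor any cell type restriction, and do not state whether each library is a separate animal. The p-values therefore reflect the spread among these 6 samples alone, some or all of which may be technical.

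Class I molecules carry short peptides from proteins made inside the cell to the surface, where CD8 T cells read them. Peptides are cut by the proteasome, moved into the endoplasmic reticulum by the TAP transporter and loaded with the help of tapasin onto a heavy chain bound to beta-2-microglobulin. Interferons raise most genes of this route, and in brain tissue microglia and blood vessel cells are known for higher class I levels than resting neurons.

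The unit was FPKM, fragments mapped to a gene, divided by its transcript length and by the fragments of the library, with sums per library of 350727 to 366861 in the knockout and 353994 to 377334 in the wild type. FPKM carry no read totals, so the depth is unknown and no counting interval is given. Mettl5 itself had 2.79, 3.81 and 2.40 FPKM in knockout libraries 1, 2 and 3, against 4.78, 5.16 and 5.92 FPKM in wild-type libraries 1, 2 and 3. The genotypes did not overlap for Mettl5, but the transcript was still present in the knockout, and its log2 fold change of -0.66 (SE 0.15) had an adjusted p of 0.79 in limma. The tissue label was checked with 5 neuronal markers, which summed to 2152 to 2201 FPKM in the knockout and 2100 to 2270 FPKM in the wild type. Several libraries stood apart within their genotype. Wild-type library 3 was high in interferon-stimulated genes, wild-type library 2 in hemoglobin genes, and knockout library 3 was low in oligodendrocyte and myelin genes, whose 7 markers summed to 1992 to 5341 FPKM in the knockout and 6026 to 7224 FPKM in the wild type.

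None of the antigen presentation genes passed the test between the genotypes. The 9 genes that averaged 1 FPKM or more were tested, and 0 had an adjusted p under 0.05 in limma with Benjamini-Hochberg adjustment over 12885 genes, against 0% of all genes tested. At an unadjusted p under 0.05 there were also 0, against 6.05% of all genes (2.37% higher and 3.69% lower in the knockout). The genotypes overlapped in each of the 10 genes, while 11.9% of all genes tested had no overlap, 5.48% higher and 6.43% lower in the knockout. The median log2 fold change over the 9 genes was 0.086, with 5 above and 4 below 0, and over all genes it was -0.0032. Fold changes run knockout over wild type and were taken after adding 1 to each FPKM, so those of low genes come out too small. In bulk tissue, fewer cells of a type and less RNA per cell cannot be told apart.

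The levels spanned a wide range, and the per-length unit allows genes to be compared. B2m was the most abundant, with a mean of 148 ± 27 FPKM (SD, n = 6 libraries), above 98.0% of the 18491 genes. H2-D1 followed at 35.5 ± 5.7 FPKM and H2-K1 at 16.6 ± 2.6 FPKM, with no overlap between B2m and H2-D1 or between H2-D1 and H2-K1. Tapbp had 11.8 ± 1.1 FPKM and was below H2-K1 in 6 of 6 libraries, although the ranges of the pair touched. The low group began below Tapbp with no overlap and held Tap2 (3.0 ± 0.63 FPKM), Cd74 (2.44 ± 0.58 FPKM), Tap1 (1.86 ± 0.79 FPKM) and Psmb8 (1.85 ± 0.74 FPKM), whose ranges overlapped. Psmb9 had 1.31 ± 0.39 FPKM and was below Psmb8 in 6 of 6 libraries. Nlrc5 was the lowest, at 0.408 ± 0.25 FPKM, and was not tested because of the filter.

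**Figure D1:**
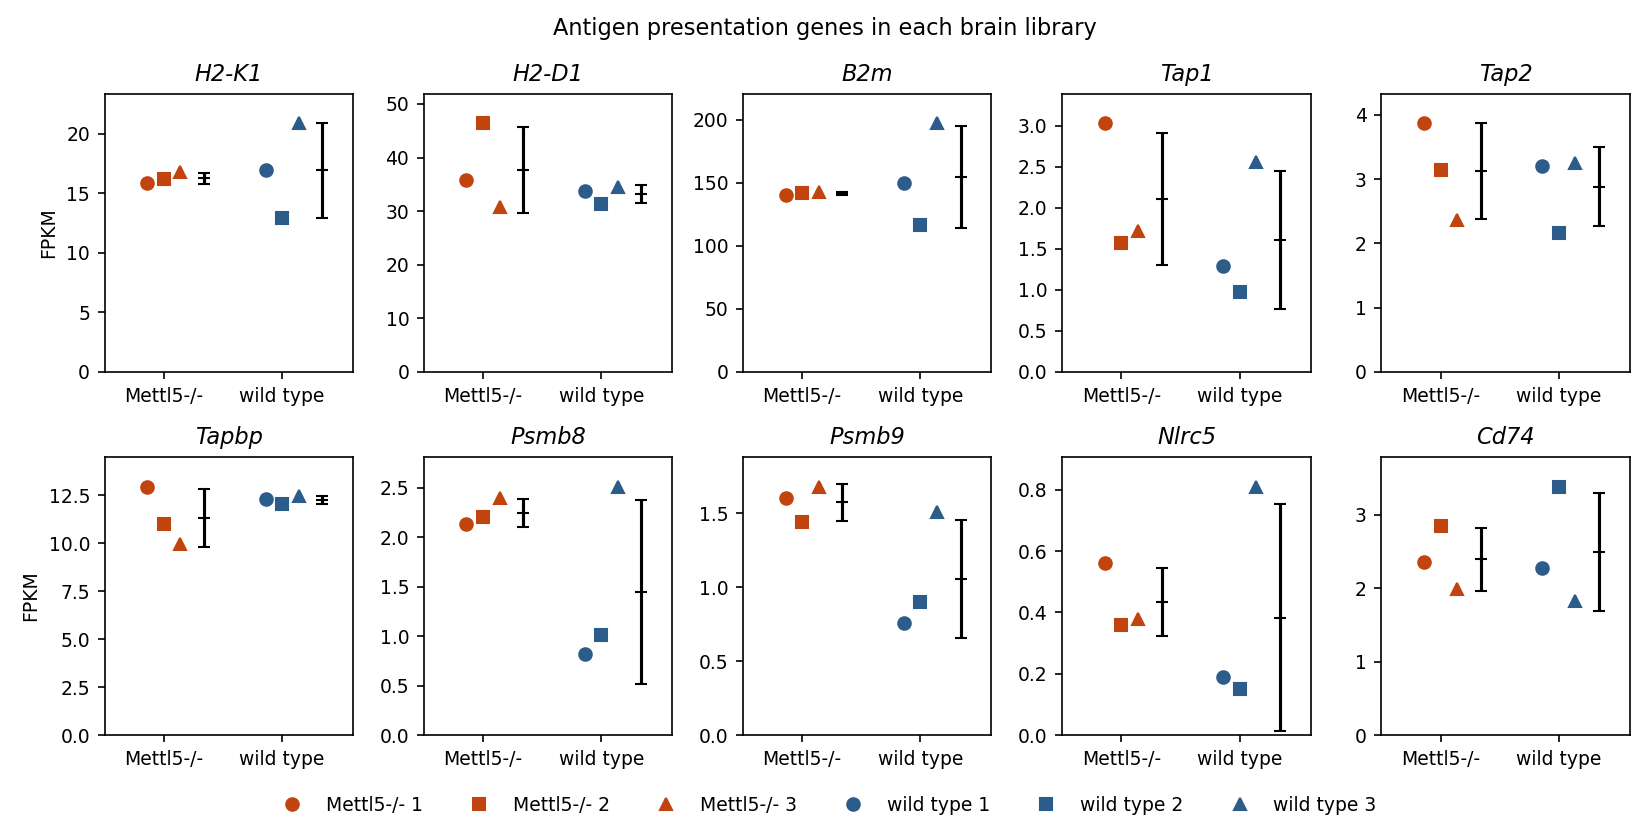
Expression (FPKM, linear axes from 0) of the 10 antigen presentation genes in each Mettl5-/- and wild-type brain library; symbols give the replicate number, and bars the mean ± SD of 3 libraries. The genotypes overlap in every panel, and wild-type library 3 is the highest of the 6 for H2-K1, B2m, Psmb8 and Nlrc5.

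The light chain and one heavy chain followed the same order of libraries. B2m (gene ID 12010; chromosome 2, 122147687 to 122153082, GRCm38), the light chain that every classical class I molecule needs, had 140.31, 141.91 and 142.58 FPKM in knockout libraries 1, 2 and 3, against 150.07, 116.84 and 197.31 FPKM in wild-type libraries 1, 2 and 3. The knockout libraries were nearly equal and lay between wild-type libraries 2 and 1. Its log2 fold change was -0.095 (SE 0.18; 95% interval -0.50 to 0.31; adjusted p 0.94 in limma). H2-K1 (gene ID 14972; chromosome 17, 33996012 to 34000619), a classical heavy chain, had 15.84, 16.17 and 16.78 FPKM in knockout libraries 1, 2 and 3, against 16.95, 12.96 and 20.88 FPKM in wild-type libraries 1, 2 and 3. The order of all 6 libraries, from wild-type library 3 down to wild-type library 2, was the same for H2-K1 as for B2m, a likeness picked out after the values were seen. The log2 fold change of H2-K1 was -0.031 (SE 0.16; 95% interval -0.39 to 0.33; adjusted p 0.981 in limma). Within the wild type the highest library stood 1.61 times above the lowest for H2-K1 and 1.69 times for B2m, against 1.06 and 1.02 times within the knockout.

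H2-D1 did not follow this order. H2-D1 (gene ID 14964; chromosome 17, 35263094 to 35267497), the other classical heavy chain, had 35.88, 46.39 and 30.69 FPKM in knockout libraries 1, 2 and 3, against 33.84, 31.40 and 34.47 FPKM in wild-type libraries 1, 2 and 3. Knockout library 2 was the highest and knockout library 3 the lowest of the 6, and the wild-type libraries lay between them. The log2 fold change was 0.16 (SE 0.15; 95% interval -0.18 to 0.49; adjusted p 0.855 in limma), and without knockout library 2 it was -0.001. The matched transcripts of H2-K1 and H2-D1 were identical at 91.1% of 1578 aligned bases. Of the stretches of 50 bases in them, 8.79% of those of H2-K1 and 14.3% of those of H2-D1 also occurred in a transcript of another gene; for stretches of 100 bases these shares were 0% and 4.64%. With the other heavy chain alone, H2-K1 shared 6.94% and H2-D1 5.31% of stretches of 50 bases, and 0% each of those of 100 bases. H2-D1 shared most with H2-Q1, at 7.4% for 50 bases and 4.24% for 100 bases. RSEM shares such ambiguous reads out by a model, and the uncertainty of that split among these genes is not shown by FPKM.

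The promoters of B2m and both heavy chains are shown because these genes are known to share control elements for interferon, NF-kappaB and NLRC5. Sequences are from the RefSeq promoter table of GRCm38.p6, which held 7 of the 10 genes, and Tap2, Nlrc5 and Cd74 had no entry. The stretch upstream of B2m (chr2:122147437-122147685, plus strand) is given with its matches in capitals. Searched on both strands were the interferon-stimulated response element (GAAA and GAAA 2 bases apart), the kappaB form (GGG and CC 5 bases apart), the letters TGACG of an X2 box, and CCAAT, here read as ATTGG, the Y box bound by NF-Y. The kappaB form matched on both strands in each of its places upstream of B2m, and the paired matches overlap.
B2m: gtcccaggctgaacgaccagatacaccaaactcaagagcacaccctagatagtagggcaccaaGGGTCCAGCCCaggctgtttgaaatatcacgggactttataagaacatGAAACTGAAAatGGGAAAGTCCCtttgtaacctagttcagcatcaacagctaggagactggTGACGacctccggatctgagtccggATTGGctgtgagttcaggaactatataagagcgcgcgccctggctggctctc
The heavy chains had a kappaB match followed by TTTCACTT, the reverse complement of AAGTGAAA, an interferon-factor core searched after the sequences were read. The kappaB matches overlap each other in GGGGATTCCCC. Positions upstream are counted from the starts that the promoter table uses, and that of H2-K1 lies within the span of the gene given above. The windows of 30 bases are chr17:34000429-34000458 (minus strand) for H2-K1 and chr17:35262923-35262952 (plus strand) for H2-D1, with both matches in capitals.
H2-K1: GGGGATTCCCCatctccacagTTTCACTTc
H2-D1: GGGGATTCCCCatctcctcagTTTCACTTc
All 3 genes also held TGACG and ATTGG at the same spacing, shown in capitals at the ends of windows of 30 bases at chr2:122147609-122147638 (plus strand) for B2m, chr17:34000359-34000388 (minus strand) for H2-K1 and chr17:35262993-35263022 (plus strand) for H2-D1.
B2m: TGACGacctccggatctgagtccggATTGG
H2-K1: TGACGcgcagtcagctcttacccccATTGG
H2-D1: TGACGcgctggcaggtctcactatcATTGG

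The spacing was the rarest of the patterns searched. TGACG followed after 20 bases by ATTGG, a pattern also chosen after the sequences were read, was in 3 of the 7 promoter windows of these genes and in 0.0944% of all 32851 windows of 300 bases (250 before and 50 after a start site), both strands searched. The interferon-stimulated response element was in 1 of 7, the B2m window, and in 3.44% of all windows, and AAGTGAAA was in 2 of 7 and in 1.6%. CCAAT was in 6 of 7 and in 37.4% of all windows, the kappaB form in 5 of 7 and in 50.8%, and the gamma-activated site TTCNNNGAA in 1 of 7, that of Psmb8, and in 8.3%. A match describes letters only and says nothing of binding. Upstream of their starts H2-K1 and H2-D1 were identical at 87.4% of 190 aligned bases.

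The immunoproteasome subunits had the largest positive fold changes of the 9 genes in the fit of all 6 libraries. Tap1 was above both with array weights. It was above Psmb9 when wild-type library 3, knockout library 2 or knockout library 3 was left out. Psmb8 (gene ID 16913; chromosome 17, 34198195 to 34201454), the interferon-inducible beta5i subunit that replaces Psmb5, had 2.13, 2.20 and 2.40 FPKM in knockout libraries 1, 2 and 3, against 0.82, 1.01 and 2.51 FPKM in wild-type libraries 1, 2 and 3. All 3 knockout libraries lay above wild-type libraries 1 and 2 and below wild-type library 3. Psmb9 (gene ID 16912; chromosome 17, 34182030 to 34187330), the beta1i subunit that replaces Psmb6, had 1.6, 1.44 and 1.68 FPKM in knockout libraries 1, 2 and 3, against 0.76, 0.90 and 1.51 FPKM in wild-type libraries 1, 2 and 3. Its knockout libraries were likewise above wild-type libraries 1 and 2, with wild-type library 3 inside the knockout range. The log2 fold change was 0.47 for Psmb8 (SE 0.24; 95% interval -0.09 to 1.03) and 0.34 for Psmb9 (SE 0.16; 95% interval -0.03 to 0.71), with unadjusted p-values in limma of 0.0889 and 0.0684 and an adjusted p of 0.79 for both.

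Both subunits depended on wild-type library 3. Without it the log2 fold changes were 0.76 for Psmb8 and 0.49 for Psmb9, with unadjusted p-values in limma of 0.00105 and 0.0106, and the adjusted p was 0.797 for both. Psmb8 and Psmb9 were then the 2 of 9 genes at an unadjusted p under 0.05, against 5.2% of all genes (1.96% higher in the knockout). At the adjusted threshold 0 of 9 and 0.00776% of all genes passed. Wild-type library 3 was singled out as high in interferon-stimulated genes, and was the highest wild-type library for both subunits. The larger differences without it follow in part from that choice and are given as a description. With the replicate number as a block the unadjusted p-values in limma were 0.0456 for Psmb8 and 0.046 for Psmb9, 2 of 9 against 14.3% of all genes (6.08% higher in the knockout), and the adjusted p was 0.345 for both. A 2-sided exact permutation of the FPKM values gave p = 0.4 for Psmb8 and 0.2 for Psmb9, where 0.1 is the smallest that 3 against 3 libraries allow.

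The constitutive subunits that they replace were far more abundant. Psmb5 had 51.44, 44.59 and 44.51 FPKM in knockout libraries 1, 2 and 3, against 53.66, 57.47 and 41.24 FPKM in wild-type libraries 1, 2 and 3. The FPKM ratio of Psmb8 to Psmb5 was 0.0414, 0.0493 and 0.0539 in knockout libraries 1, 2 and 3, against ratios of 0.0153, 0.0176 and 0.0609 in wild-type libraries 1, 2 and 3, so that wild-type library 3 was again above the knockout and the other wild-type libraries below it. For Psmb9 to Psmb6 the ratio was 0.0234, 0.0227 and 0.0312 in the knockout, against ratios of 0.0116, 0.0131 and 0.0275 in the wild type, with wild-type library 3 inside the knockout range and the other wild-type libraries below it. On the log2 scale of FPKM + 1 the differences between genotypes were 0.57 and 0.37, with 2-sided exact permutation p-values of 0.4 and 0.3, both 0.625 after adjustment over 5 ratios. Psmb10, the third immunoproteasome subunit, was expressed at a higher level of 18.90, 15.24 and 16.47 FPKM in the knockout, against 16.40, 16.09 and 14.94 FPKM in the wild type, with overlapping genotypes and wild-type library 3 the lowest of the 6.

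**Figure D2:**
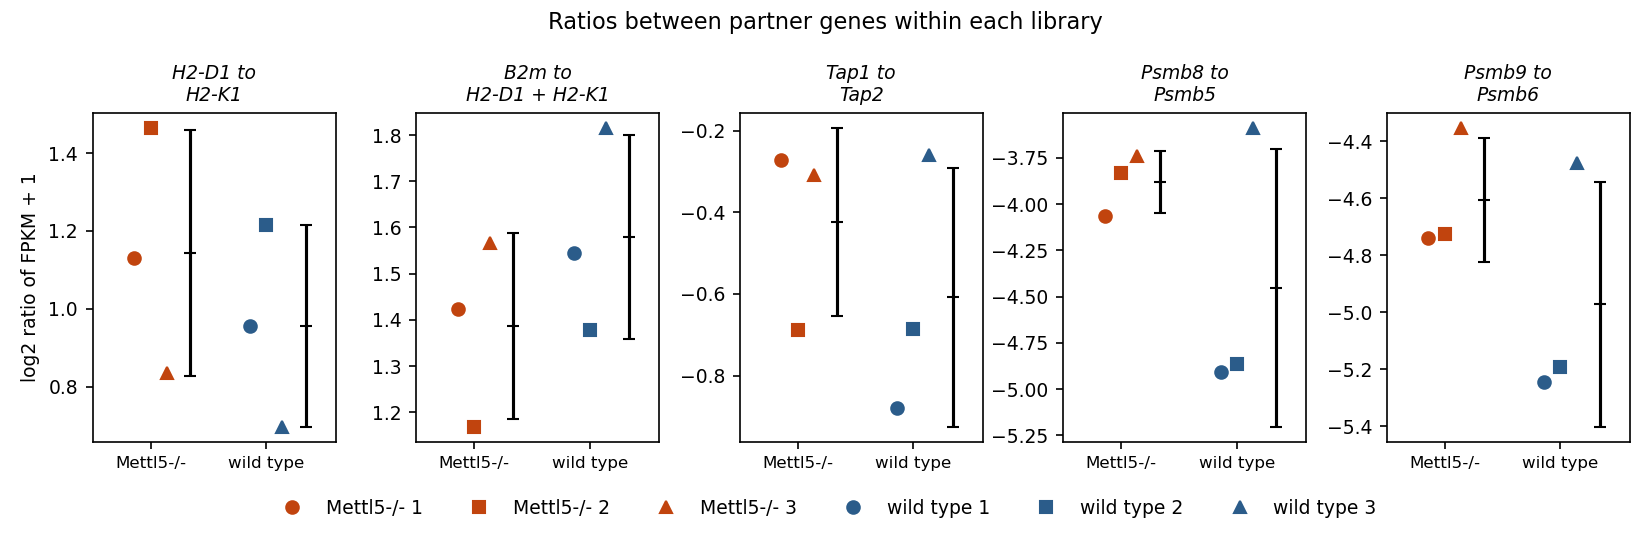
Log2 ratio of FPKM + 1 between partner genes within each Mettl5-/- and wild-type library; symbols give the replicate number, bars the mean ± SD of 3 libraries, and the vertical axes differ and do not start at 0. For Psmb8 to Psmb5 and Psmb9 to Psmb6, wild-type libraries 1 and 2 lie below the 3 knockout libraries and wild-type library 3 does not.

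The TAP transporter genes were highest in knockout library 1. Tap1 (gene ID 21354; chromosome 17, 34187556 to 34197225), a subunit of the transporter, had 3.03, 1.57 and 1.72 FPKM in knockout libraries 1, 2 and 3, against 1.29, 0.97 and 2.56 FPKM in wild-type libraries 1, 2 and 3. Knockout library 1 and wild-type library 3 stood above the other 4. Tap2 (gene ID 21355; chromosome 17, 34204479 to 34216321), the other subunit, had 3.87, 3.14 and 2.37 FPKM in knockout libraries 1, 2 and 3, against 3.21, 2.17 and 3.26 FPKM in wild-type libraries 1, 2 and 3. The same libraries led, but wild-type library 1 was close behind. The log2 fold changes were 0.27 (SE 0.26; adjusted p 0.861 in limma) for Tap1 and 0.086 (SE 0.18; adjusted p 0.946 in limma) for Tap2, and that of Tap1 was 0.52 both without wild-type library 3 and with array weights, which count a deviating library less. The Tap1 to Tap2 ratio of FPKM was 0.783, 0.5 and 0.726 in the knockout, against 0.402, 0.447 and 0.785 in the wild type, with a 2-sided exact permutation p of 0.7.

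Tapbp (gene ID 21356; chromosome 17, 33919478 to 33929290), which encodes tapasin, the bridge between TAP and the heavy chain, had 12.96, 11.02 and 9.98 FPKM in knockout libraries 1, 2 and 3, against 12.31, 12.04 and 12.45 FPKM in wild-type libraries 1, 2 and 3. The wild-type values lay within 1.03 times of each other, and the knockout values reached to either side of them. The log2 fold change was -0.11 (SE 0.11; adjusted p 0.854 in limma). Wild-type library 3, which stood out for the immunoproteasome genes, was at 1.02 times the mean of the other wild-type libraries for Tapbp, against 2.74 times for Psmb8, 2.27 times for Tap1 and 1.82 times for Psmb9.

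Most of the genes lie close together, which comes with the choice of the genes and is no result of these data. Of the 10 genes, 7 lie on chromosome 17 within 1348 kb, the mouse major histocompatibility complex. Psmb9, Tap1, Psmb8 and Tap2 are the 4 RefSeq genes in a block of 34.3 kb, and 225 bases separate the starts of Psmb9 and Tap1, which point away from each other. The window of 30 bases that holds the CCAAT match in this gap is shown (chr17:34187322-34187351, plus strand, RefSeq GRCm38.p6). It is given because the same letters lie 8 bases upstream of the start of Psmb9 and 222 bases upstream of that of Tap1.
Tap1 and Psmb9: gggctcggctttCCAATcagcggctgcgcg
The 2 neighbours did not share a library order, since Tap1 was highest in knockout library 1 and Psmb9 in knockout library 3. In the GENCODE annotation the transcript matched to Psmb9 runs into the first exon of Tap1 on the other strand, and the strand setting of the counting is not given, so reads from that overlap cannot be told apart.

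Nlrc5 (gene ID 434341; chromosome 8, 94434335 to 94527272), the transactivator of class I genes, was the lowest of the genes. It had 0.56, 0.36 and 0.38 FPKM in knockout libraries 1, 2 and 3, against 0.19, 0.15 and 0.81 FPKM in wild-type libraries 1, 2 and 3. As for Psmb8, the knockout libraries lay between wild-type library 3 and the other wild-type libraries. Wild-type library 3 was 4.76 times the mean of wild-type libraries 1 and 2. A 2-sided exact permutation of the knockout against the wild-type values gave p = 1.0.

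Cd74 (gene ID 16149; chromosome 18, 60803849 to 60812652), the invariant chain that guides class II molecules to the endosome, had a library order unlike that of the class I genes. It had 2.35, 2.84 and 1.99 FPKM in knockout libraries 1, 2 and 3, against 2.27, 3.38 and 1.83 FPKM in wild-type libraries 1, 2 and 3. Wild-type library 2 was highest and wild-type library 3 lowest, the reverse of H2-K1 and B2m at both ends. The log2 fold change was -0.025 (SE 0.18; adjusted p 0.987 in limma). Of 12 other class II pathway genes, 9 had a mean under 1 FPKM, among them the class II transactivator Ciita (0.05, 0.08 and 0.14 FPKM in the knockout, against 0.06, 0.07 and 0.16 FPKM in the wild type). The class II chain H2-Ab1 had 0.73, 0.96 and 0.56 FPKM in the knockout, against 0.11, 1.26 and 0.50 FPKM in the wild type, and like Cd74 was highest in wild-type library 2. Of the 3 tested, Ifi30, a lysosomal thiol reductase, had 4.06, 4.28 and 4.24 FPKM in the knockout, against 3.97, 2.76 and 3.03 FPKM in the wild type, with no overlap, against 5.48% of all genes (log2 fold change 0.30, unadjusted p 0.0509 and adjusted p 0.79 in limma).

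**Figure D3:**
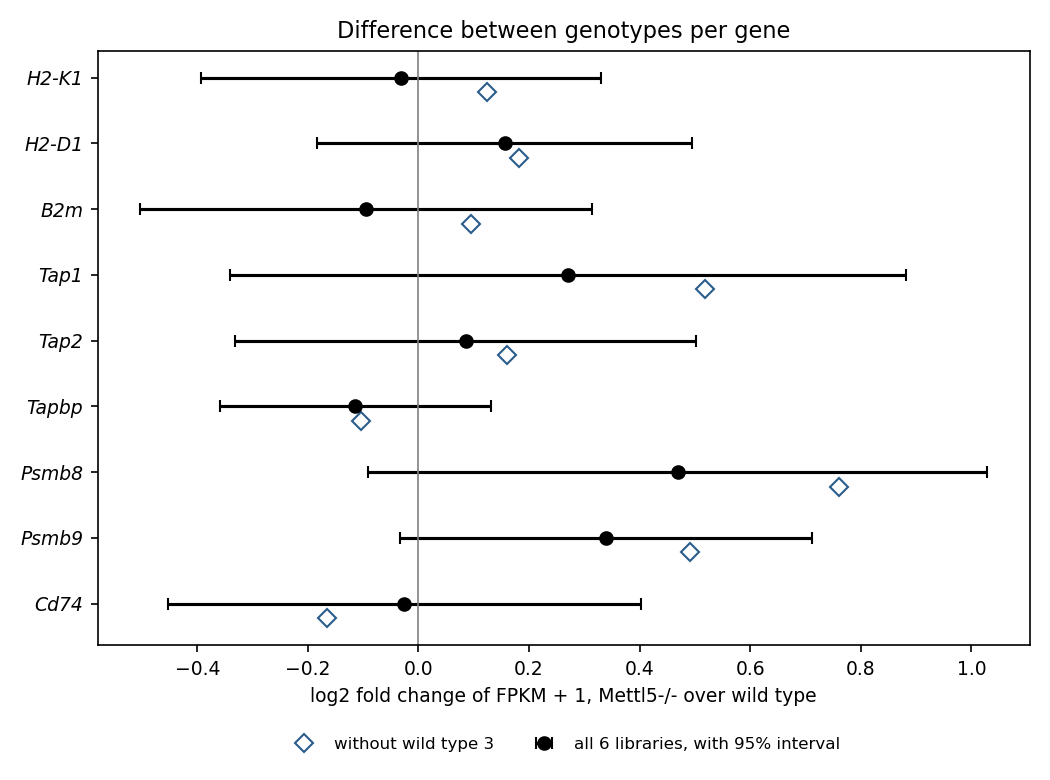
Log2 fold change of FPKM + 1, Mettl5-/- over wild type, for the 9 tested antigen presentation genes; black points use all 6 libraries with their 95% interval from limma, and open diamonds leave out wild-type library 3. All 9 intervals span 0, and without wild-type library 3 H2-K1 and B2m change sign while Psmb8 has 0.76.

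Other genes of the route gave no call either. Of 20 other class I and related genes listed, 19 were measured and 10 tested, with 4 above and 6 below 0 and a median log2 fold change of -0.034. H2-Q4, a non-classical heavy chain, had 13.84, 11.18 and 12.31 FPKM in the knockout, against 11.28, 8.53 and 12.86 FPKM in the wild type, and was lowest in wild-type library 2 as H2-K1 was. H2-T22 had 4.37, 6.70 and 5.28 FPKM in the knockout, against 6.20, 6.37 and 8.23 FPKM in the wild type (log2 fold change -0.31, adjusted p 0.793 in limma). The non-classical genes H2-M3 and H2-Q1 had log2 fold changes of -0.19 and -0.097. All 5 peptide loading partners were below 0, with a median of -0.18. Calr, the chaperone calreticulin of the loading complex, had 189.17, 203.31 and 217.33 FPKM in the knockout, against 184.74, 311.83 and 286.95 FPKM in the wild type (log2 fold change -0.33, adjusted p 0.799 in limma), with wild-type library 1 below all 3 knockout libraries. Pdia3 and Canx, further chaperones of loading, were likewise lowest in wild-type library 1, at 75.15 and 71.83 FPKM. Of 7 further proteasome genes, 3 were above and 4 below 0, and Psme2, a subunit of the interferon-inducible PA28 activator, had 17.46, 12.64 and 13.02 FPKM in the knockout, against 15.94, 17.75 and 17.67 FPKM in the wild type (adjusted p 0.79 in limma).

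Of 19 regulators, 10 were above and 9 below 0, and 1 of 19 had an unadjusted p under 0.05, a share near the 6.05% of all genes. That was Nfyb, a subunit of the NF-Y factor that binds the CCAAT box, with 17.48, 14.66 and 19.42 FPKM in the knockout, against 14.56, 12.08 and 13.58 FPKM in the wild type. The genotypes did not overlap, by a narrow margin, against 11.9% of all genes without overlap (log2 fold change 0.33, SE 0.12, unadjusted p 0.0269 and adjusted p 0.79 in limma). Its partner Nfya had a log2 fold change of -0.12. Irf1, an interferon-induced factor, had 4.27, 2.34 and 2.76 FPKM in the knockout, against 2.48, 2.23 and 3.03 FPKM in the wild type, with the same leading libraries as Tap1 and Tap2.

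Interferon-stimulated genes were compared over the same libraries, and the antigen presentation genes followed them only in part. Of 22 tested interferon-stimulated genes, 18 were highest in wild-type library 3, against 14.1% of all genes tested, and 3 of the 9 tested antigen presentation genes were, or 4 of 10 with Nlrc5. The median level of the list, as log2(FPKM + 1) minus the mean of the 6 libraries, was 0.093, -0.24 and 0.19 in knockout libraries 1, 2 and 3, against levels of -0.48, -0.50 and 0.87 in wild-type libraries 1, 2 and 3. For the 9 antigen presentation genes it was 0.13, 0.064 and -0.037 in the knockout, against -0.052, -0.32 and 0.13 in the wild type. Wild-type library 3 was highest and wild-type library 2 lowest for both lists. In knockout libraries 2 and 3 the medians of the lists differed in sign, but those of the antigen presentation genes were small. The members were mixed in knockout library 3, from 0.30 for Psmb8 and 0.23 for Psmb9 to -0.22 for Tapbp and -0.23 for Tap2. H2-D1 was highest in knockout library 2, and Tapbp was flat in wild-type library 3. Irf7, a transcription factor that interferon induces and chosen after its values were seen, had 4.63, 2.80 and 7.46 FPKM in the knockout, against 1.79, 1.37 and 16.67 FPKM in the wild type. All 3 knockout libraries again lay between wild-type library 3 and wild-type libraries 1 and 2.

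A second group of interferon-induced genes was highest in knockout library 1. Gbp2, a guanylate-binding protein gene, had 7.87, 1.26 and 1.28 FPKM in knockout libraries 1, 2 and 3, against 0.96, 1.06 and 2.66 FPKM in wild-type libraries 1, 2 and 3. The immunity-related GTPase genes Iigp1 (6.53, 1.01 and 1.65 FPKM in the knockout, against 0.64, 0.91 and 3.19 FPKM in the wild type) and Irgm1 (10.65, 5.13 and 5.80 FPKM in the knockout, against 4.10, 3.36 and 9.39 FPKM in the wild type) had the same leading libraries. Ifi27, another gene that interferon induces, was instead lowest in knockout library 1, with 11.88, 17.54 and 15.87 FPKM in the knockout, against 16.22, 14.07 and 28.75 FPKM in the wild type. Knockout library 1 was also the highest for Tap1, Tap2, Tapbp and Irf1. Among the 22 genes 14 were above and 8 below 0, against 49.1% of all genes above 0, and the median log2 fold change was 0.12, with 0 at an unadjusted p under 0.05 in limma. Without wild-type library 3 there were 21 above 0, against 48.1% of all genes, a median of 0.66 and 11 at an unadjusted p under 0.05, against 5.2% of all genes, while 0 passed the adjusted threshold. That library was singled out because it was high in these same genes, so the shift follows in part from the choice and is given as a description.

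**Figure D4:**
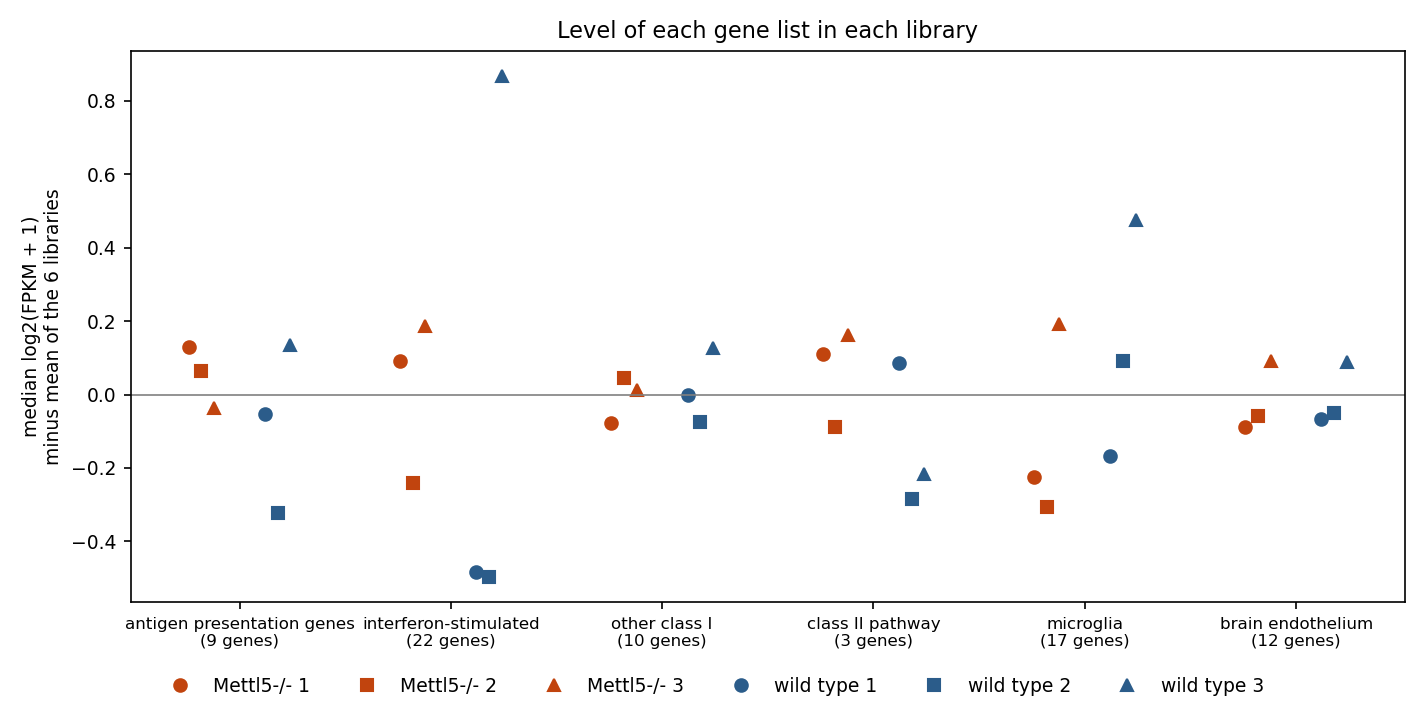
Median level of each gene list in each Mettl5-/- and wild-type library, as log2(FPKM + 1) minus the gene's mean over the 6 libraries; symbols give the replicate number and the axis labels the number of genes tested. For the interferon-stimulated list wild-type library 3 is at 0.87 and wild-type libraries 1 and 2 at -0.48 and -0.50, with the knockout libraries between them.

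Markers of cells that carry class I or class II molecules were compared over the same libraries. Of 17 microglial markers 15 were highest in wild-type library 3, against 14.1% of all genes tested. The summed level of the 17 was 185.6 to 245.0 FPKM in the knockout and 209.6 to 291.6 FPKM in the wild type. The microglial median was -0.23, -0.31 and 0.19 in knockout libraries 1, 2 and 3, against levels of -0.17, 0.092 and 0.47 in wild-type libraries 1, 2 and 3. All 17 had a log2 fold change below 0, with a median of -0.27 (-0.089 without wild-type library 3), and 0 of 17 had an unadjusted p under 0.05 in limma. C1qa, a complement subunit made by microglia, had 31.55, 30.53 and 32.93 FPKM in the knockout, against 35.78, 34.39 and 38.36 FPKM in the wild type, with no overlap, where 6.43% of all genes were lower without overlap. The microglial median was lowest in knockout libraries 1 and 2, although some of the 17 markers were lowest in wild-type library 1. Knockout libraries 1 and 2 lay above wild-type libraries 1 and 2 for Psmb8, Psmb9, Tap1 and Nlrc5. For H2-K1 and B2m they lay below wild-type library 1 and above wild-type library 2. The 12 brain endothelial markers summed to 260.2 to 289.9 FPKM in the knockout and 270.5 to 312.2 FPKM in the wild type. Among them 5 of 12 were highest in wild-type library 3, against the same 14.1% of all genes tested. The part of microglia and endothelium in these values was not tested.

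Lymphocyte markers were low. The 11 T and NK cell markers summed to 2.83 to 5.63 FPKM in the knockout and 3.52 to 5.57 FPKM in the wild type, and 10 of 11 had a mean under 1 FPKM. Cd4, the one above it, had 1.68, 2.97 and 0.42 FPKM in the knockout, against 0.78, 3.22 and 0.36 FPKM in the wild type, and was lowest in wild-type library 3. Of the CD3 chains that define T cells, Cd3e had 0, 0.09 and 0.05 FPKM in the knockout, against 0.05, 0.05 and 0 FPKM in the wild type. Cd3g had 0.07, 0 and 0 FPKM in the knockout, against 0.07, 0 and 0.13 FPKM in the wild type, highest in wild-type library 3. Cd3d had 0.05, 0.29 and 0.25 FPKM in the knockout, against 0.4, 0.65 and 0.53 FPKM in the wild type, with no overlap. Of all genes tested, which averaged 1 FPKM or more, 6.43% were lower in the knockout without overlap. Cd3d was picked after its values were seen and was not tested at this level. Cd8a, picked likewise, had 0.66, 0.63 and 0.85 FPKM in the knockout, against 0.35, 0.56 and 0.68 FPKM in the wild type. The knockout was higher for Cd8a in all 3 same-numbered pairs, and the genotypes overlapped. The part of lymphocytes in the values above was not tested. The 7 dendritic and B cell markers summed to 2.81 to 5.02 FPKM in the knockout and 3.92 to 4.03 FPKM in the wild type, of which Flt3 made up most. Border macrophage markers, 7 in all, summed to 6.19 to 6.61 FPKM in the knockout and 5.04 to 7.09 FPKM in the wild type. Red blood cell markers, 5 in all, summed to 11.76 to 567.2 FPKM in the knockout and 49.83 to 2834 FPKM in the wild type. The highest sum was in wild-type library 2, which was also the lowest library for 5 of the 10 antigen presentation genes. The share of all genes lowest in that library was not computed, and the part of blood in those values was not tested.

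The ratios among the class I chains themselves overlapped between genotypes. The FPKM ratio of H2-D1 to H2-K1 was 2.27, 2.87 and 1.83 in knockout libraries 1, 2 and 3, against ratios of 2.0, 2.42 and 1.65 in wild-type libraries 1, 2 and 3. In both genotypes library 2 was highest and library 3 lowest, and the knockout was higher within all 3 same-numbered pairs. On the log2 scale of FPKM + 1 the difference was 0.19 (2-sided exact permutation p = 0.5, and 0.625 after adjustment over 5 ratios). With the replicate number as a block the exact permutation gave p = 0.25, a value that 3 pairs in the same direction always give. The ratio of B2m to the sum of both heavy chains was 2.71, 2.27 and 3.0 in the knockout, against 2.95, 2.63 and 3.56 in the wild type, with a log2 difference of -0.19 (2-sided exact permutation p = 0.5). It was lower in the knockout in all 3 pairs (blocked exact permutation p = 0.25, again the value that such agreement always gives), and library 3 was highest in each genotype.

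The genes most alike in pattern to the mean of the 9 tested antigen presentation genes were Ralgapa2, Galnt4, BC030499, Cited4 and Vps37a, with Pearson correlations over the 6 libraries of 0.988, 0.985, 0.977, 0.976 and 0.975 among 12876 genes. Ralgapa2 had 3.86, 3.86 and 3.67 FPKM in the knockout, against 3.53, 3.45 and 3.98 FPKM in the wild type. These correlations are a description, given with no test.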

How the data were processed

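Per the labels' protocols, brain RNA was isolated with Trizol, selected by poly(A) tail on magnetic beads, fragmented and reverse transcribed from random hexamers. The authors deposited FPKM values to 2 decimals for 18491 genes, 1 column per sample, per the file headers. Per the submitters' processing notes, Bowtie2 and RSEM were used with mm10; no version, annotation, strand setting or filter is known for them here. Symbols of 29 genes that a spreadsheet had damaged or left out were filled by gene ID, and coordinates came from the RefSeq table of GRCm38.p6, in which 18450 gene IDs were found. Groups follow the genotype label. FPKM are not counts, so no count model was run. Genes averaging 1 FPKM or more over the 6 libraries (12885) were fitted after log2(FPKM + 1) with limma 3.58.1 in R 4.3.3, using eBayes with a trend and a robust prior; tests were 2-sided, and Benjamini-Hochberg adjusted p-values under 0.05 counted as calls. The script was tested on simulated data. Exact permutations used SciPy 1.17.1 under Python 3.11.15, and Biopython 1.88 aligned GENCODE transcripts and RefSeq promoters. Both genotypes carry the replicate numbers 1 to 3 in their titles. Deviations of same-numbered libraries from their group means correlated at 0.485, 0.413 and 0.539 over genes. On that ground, which the labels do not give, same-numbered libraries were treated as pairs only in the replicate block and where pairs are named. The main fit and the exact permutations reported here took the libraries as unpaired, apart from the ratio permutations given with a block. Named were all members, Mettl5, the 5 genes most alike in pattern and, from each list described, up to 4 tested genes of lowest p. Ciita, H2-Ab1, Cd3d, Cd3e, Cd3g, Cd8a, Irf7, Hist2h2aa2 and Rps27rt were picked after their values were seen. The members and lists were chosen with earlier results of these data known. Alternatives changed the pseudocount, filter, scaling, weights, prior, replicate block and each library in turn. Some genes of the lists are not reported here by name.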

Additional observations from a re-analysis of the deposited data

How the results depend on the processing

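The count of antigen presentation genes that passed was 0 under every alternative run. The count over all genes was 0, except for 1 without a filter (Hist2h2aa2, listed at 0 in all 3 knockout libraries) and 1 without wild-type library 3 (Rps27rt), so that it ranged from 0 to 1 over the fits that left out 1 library. With the replicate block 0 genes passed, the lowest adjusted p in limma was 0.285, and no call changed. Leaving out 1 library turned the sign of 6 members: the log2 fold change ranged from -0.20 to 0.12 for H2-K1, -0.28 to 0.096 for B2m, -0.001 to 0.29 for H2-D1, -0.054 to 0.22 for Tap2, -0.165 to 0.15 for Cd74 and, as an untested difference, -0.037 to 0.29 for Nlrc5. Tap1 (0.068 to 0.52), Psmb8 (0.29 to 0.76), Psmb9 (0.24 to 0.49) and Tapbp (-0.21 to -0.034) kept their sign. The median over the tested members ranged from -0.013 to 0.22 over these fits. Pseudocounts of 0.1 and 0.5, scaling, weights and the prior turned no sign. A filter at 5 FPKM left 4 members, whose median was -0.063, against 0.086 over 9; the 4 had the same fold changes. The log2 difference of Nlrc5 was 0.08, and 0.38 with a pseudocount of 0.1. Depth is unknown, so FPKM near 1 or below rest on an unknown number of reads.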
